A study of Mus musculus with 8 samples.

Results

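In mouse 2-cell embryos without the transcription factor Dux, 9 genes close to silent in wild type gave higher RNA levels in every pool than in any wild-type pool. They are 6 protein-coding genes (Muc3, Mef2b, Reep1, Lyn, Pla2g1b and Sult1c1), 2 long intergenic noncoding RNA genes (Gm2762 and Gm32885) and 1 pseudogene (Gm36448), out of 13101 genes in the deposited table. They were picked by symbol for a wild-type mean of about 3 FPKM or less and higher values in all Dux KO pools. FPKM counts fragments scaled to transcript length and library size. Their differences between the groups are therefore given as a description with no test.

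PolyA RNA was sequenced from 8 pools of embryos of the C57BL/6 background, 4 of the genotype Dux KO and 4 wild type (WT), with 12 to 18 embryos in each pool. Embryos came from timed matings and all groups were at the 2-cell stage, with no treatment in the labels. The labels give neither the deleted allele, nor the number of founder lines, nor the genotype of the mothers, nor whether the pools of a group had separate parents. The p-values below thus measure the spread between these pools only. Dux itself was not analysed here. MERVL-int, the internal part of the retrovirus that DUX activates, gave 11360 to 16380 fragments (FPM, scaled to library size) in WT pools and 4548 to 6050 in Dux KO pools, a log2 difference of -1.33 (limma adjusted p = 3.27e-05). All 25 markers of oocytes and 2-cell embryos on the list used were in the table, at a summed 7576 to 8656 FPKM in WT against 5708 to 7813 in Dux KO. Most of that sum was Dppa3 (5244 FPKM in WT against 3445 in Dux KO) and Obox6 (1351 against 728.8). Of the 25, 7 were lower in Dux KO, Dppa3 and Obox6 among them, and 3 were higher (limma adjusted p under 0.05). Those 3 were Bmp15 (110.2 to 283.3 FPKM, adjusted p = 0.00458), Btg4 (427.6 to 1200 FPKM, 0.0195, overlapping pools) and Zar1 (2.53 to 4.52 FPKM, 0.0167). The call of Btg4 ended without WT replicate 4 (0.058) and that of Zar1 without Dux KO replicate 1 (0.0543). Among all genes tested, 18.1% were lower and 15.5% higher. Under quantile normalization the calls of Dppa3 and Obox6 ended. Recovered gene reads numbered 12343369 to 14548526 per pool, and no 2 pools of a group agreed within sampling noise.

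The mouse genome is switched on in earnest at the 2-cell stage, while RNA stored in the egg is being destroyed. Dux encodes a double homeobox factor that is present briefly at this stage, and forced DUX in embryonic stem cells turns on MERVL and many 2-cell genes. Most tissue-specific genes are barely read at this stage. Of the 6 coding genes, Lyn is best known from B cells and myeloid cells, Muc3 from the gut, Pla2g1b from the pancreas and Reep1 from neurons. In bulk RNA, more cells that make a transcript and more RNA per cell cannot be told apart.

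RefSeq promoters (build GRCm38.p6), from 250 bases before to 50 bases after the annotated start, were given for 8 of the 9 genes. The promoters of Mef2b, Gm2762 and Gm32885 are printed because they are the 3 that hold CCAAT, the letters of the CCAAT box, which binds the factor NF-Y. Capitals mark CCAAT, read as ATTGG where it lies on the other strand. The Mef2b promoter lies at chr8:70152511-70152810 on the plus strand, that of Gm2762 at chr13:53393439-53393738 on the plus strand and that of Gm32885 at chr15:97167195-97167494 on the minus strand.
Mef2b: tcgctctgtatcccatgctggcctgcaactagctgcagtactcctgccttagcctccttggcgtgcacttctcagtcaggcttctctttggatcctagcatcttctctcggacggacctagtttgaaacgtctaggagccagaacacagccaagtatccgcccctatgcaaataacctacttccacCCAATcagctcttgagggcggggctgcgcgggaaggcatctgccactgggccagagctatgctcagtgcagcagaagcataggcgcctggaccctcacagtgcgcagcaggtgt
Gm2762: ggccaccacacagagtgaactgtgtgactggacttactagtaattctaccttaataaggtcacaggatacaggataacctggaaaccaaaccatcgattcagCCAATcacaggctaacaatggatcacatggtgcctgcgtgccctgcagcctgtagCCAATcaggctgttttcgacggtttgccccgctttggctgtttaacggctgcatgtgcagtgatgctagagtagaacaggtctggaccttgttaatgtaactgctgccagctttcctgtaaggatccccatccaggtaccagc
Gm32885: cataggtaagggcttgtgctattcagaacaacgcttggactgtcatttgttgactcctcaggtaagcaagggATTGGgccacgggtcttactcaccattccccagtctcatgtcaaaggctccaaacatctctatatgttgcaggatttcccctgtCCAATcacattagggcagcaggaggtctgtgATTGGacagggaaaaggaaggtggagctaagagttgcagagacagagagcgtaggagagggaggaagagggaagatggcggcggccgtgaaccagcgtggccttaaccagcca
In Mef2b the capitals begin at position -64, counted from the gene start. Gm2762 holds them at -148 and -93. Gm32885 holds them at -94 as printed and at -178 and -63 on the other strand. CCAAT was found on either strand in 37.4% of 32544 RefSeq promoters of the same length, which is close to the 3 of 8 here.

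All 3 promoters also hold the 7 letters CCAATCA, on one strand or the other, as do 7.8% of all promoters. That longer string was searched only after the promoters had been read, so its count is no more than a description. It contains, on the opposite strand, TGATT, a core of the sequence that DUX binds. TGATT was present in 37.0% of promoters and in these same 3, each time overlapping the CCAAT box. The TATA box, TATAAA, was present in Sult1c1 alone, against 13.6% of all promoters. GGGCGG, a GC box, was present in Mef2b, Reep1 and Sult1c1, against 35.9% of all. The E box CACCTG was in the same 3 genes, against 20.3% of all. Promoter GC content ran from 39.3% in Gm36448 to 57.0% in Mef2b, beside a median of 53.0% over all promoters. Counted upstream from the GENCODE M21 start, the RefSeq start of Muc3 lies at 16724 bases and that of Mef2b at -13050 bases, which is inside the GENCODE gene, so for these 2 genes the window belongs to another start than the GENCODE one. The other 6 starts differed by at most 480 bases.

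The highest levels without Dux were those of Gm32885, a noncoding RNA gene on the minus strand of chromosome 15 (97157029 to 97167244, GRCm38). The WT pools held 1.33, 1.47, 1.02 and 2.74 FPKM, and the Dux KO pools held 14.4, 9.68, 13.5 and 13.7 FPKM. Every Dux KO pool was at least 3.54 times the highest WT pool. The means were 1.64 ± 0.754 and 12.8 ± 2.13 FPKM (SD, n = 4 each), and the difference on the log2(FPKM + 1) scale was 2.41, the largest of the 9. Reads behind these values numbered 15 to 44 per WT pool and 186 to 255 per Dux KO pool. Of the 50-base words in its transcripts, 8.21% also occur in transcripts of other genes, 128 in number. The gene that shares the most words with it, Trpc4ap, had 5.30 FPKM in WT against 3.77 in Dux KO.

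Gm2762, the other noncoding RNA gene, lies on the plus strand of chromosome 13 (53393657 to 53455630). It had 0.282, 0.263, 0.409 and 0.596 FPKM in the WT pools and 3.91, 5.20, 3.87 and 3.30 FPKM in the Dux KO pools. The lowest Dux KO pool was 5.54 times the highest WT pool, the widest gap of the 9 genes. Its means were 0.388 ± 0.154 and 4.07 ± 0.804 FPKM (SD, n = 4 each), a ratio of 10.5. Over the 4 pools of a group, 109 reads in WT stood against 1325 in Dux KO, with exact Poisson 95% intervals of 89.5 to 131 and 1250 to 1400 reads. These intervals cover counting error only, and reads without molecular identifiers are not separate molecules. Its transcripts share no 50-base word with another gene.

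Gm36448 is annotated as an unprocessed pseudogene on the minus strand of chromosome 14 (52538652 to 52540876). The WT pools gave 2.601, 1.64, 1.52 and 1.39 FPKM and the Dux KO pools gave 8.96, 14.2, 9.24 and 9.01 FPKM. The 3 other Dux KO pools lay within a narrow band below replicate 2. Its exons add up to only 438 bases, so these levels rest on 8 to 14 reads per WT pool and 55 to 98 per Dux KO pool. The log2 difference was 2.02. Of its 50-base words, 16.7% occur in Atp6ap2, a subunit gene of the vacuolar proton pump, which was far more abundant (114.7 FPKM in WT against 108.4 in Dux KO). Reads from the shared stretch cannot be assigned between them, which makes the level of Gm36448 uncertain.

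Reep1 encodes a membrane protein that bends and shapes the tubular endoplasmic reticulum, and in people its mutation causes hereditary spastic paraplegia. It lies on the plus strand of chromosome 6 (71707561 to 71810710). The WT pools held 2.02, 0.980, 1.84 and 1.46 FPKM, and the Dux KO pools 12.1, 6.65, 8.66 and 9.25 FPKM. Both groups varied about alike in proportion, with coefficients of variation of 29.2% in WT and 24.5% in Dux KO, and they did not overlap. With 328 reads in WT and 2209 in Dux KO it has the most reads of the 9 in Dux KO. The means were 1.57 ± 0.459 and 9.16 ± 2.24 FPKM (SD, n = 4 each), 1.97 apart on the log2 scale.

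Lyn encodes a tyrosine kinase of the Src family that signals below antigen and growth factor receptors in blood cells. It lies on the plus strand of chromosome 4 (3678115 to 3813122). The WT pools were split, with 2.68 and 2.14 FPKM in replicates 1 and 2 and 0.611 and 0.820 FPKM in replicates 3 and 4. The Dux KO pools held 10.9, 8.71, 8.40 and 5.797 FPKM. No other member varied as much among WT pools, with a coefficient of variation of 64.3%, and the lowest Dux KO pool was still 2.17 times the highest WT pool. The log2 difference was 1.94. Of the 50-base words of Lyn, 18.3% occur in Gm11787 or in Gm26857, which overlaps Lyn on the opposite strand, and neither gene is in the rows used here. Whether reads were counted by strand is not given in the sources used here, so reads of Lyn and Gm26857 cannot be told apart in their 248 shared exonic bases.

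Mef2b encodes a transcription factor of the MADS box family, known from germinal centre B cells. It lies on the plus strand of chromosome 8 (70139711 to 70167488). The WT pools held 1.97, 1.44, 1.30 and 1.68 FPKM and the Dux KO pools 7.16, 8.29, 6.15 and 7.05 FPKM. Pools agreed most closely for this gene, with coefficients of variation of 18.4% in WT and 12.2% in Dux KO. Its log2 difference, 1.65, was the smallest of the 9. Mef2b shares 62 exonic bases with Borcs8, a lysosome positioning gene on the same strand, yet only 0.868% of its 50-base words. Borcs8 moved the other way, from 36.5 ± 4.13 to 21.4 ± 4.85 FPKM (SD, n = 4 each; log2 difference -0.77, limma adjusted p = 0.01).

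Muc3 encodes a membrane-bound mucin of the intestinal surface and lies on the minus strand of chromosome 5 (137134922 to 137149322). It had the lowest level of the 9 in both groups. The WT pools gave 0.586, 0.222, 0.171 and 0.313 FPKM, which is 4 to 14 reads per pool, and the Dux KO pools gave 3.55, 3.57, 2.67 and 3.36 FPKM, which is 77 to 109 reads. The Dux KO pools stood close together and each was at least 4.56 times the highest WT pool. The 32 WT reads in all carry an exact Poisson 95% interval of 21.9 to 45.2, so the ratio of means of 10.2 is loose on its WT side.

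Pla2g1b encodes the secreted phospholipase A2 of pancreatic juice, which releases fatty acids from phospholipids. It lies on the plus strand of chromosome 5 (115466262 to 115474722). The WT pools held 1.60, 0.909, 1.75 and 0.852 FPKM and the Dux KO pools 7.44, 7.58, 5.20 and 11.0 FPKM. Its spread among Dux KO pools, a coefficient of variation of 30.5%, was the largest of the 9. The log2 difference of 1.93 rests on 46 reads in WT and 326 in Dux KO.

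Sult1c1 encodes a cytosolic sulfotransferase, an enzyme that moves sulfate onto small phenolic molecules, and lies on the minus strand of chromosome 17 (53961615 to 53990674). The WT pools held 4.13, 1.80, 1.39 and 2.49 FPKM and the Dux KO pools 8.54, 10.3, 16.1 and 10.8 FPKM. The gap between the groups was the narrowest here, with the lowest Dux KO pool at 2.07 times the highest WT pool. WT replicate 1 was the only WT pool above 3 FPKM for any of the 9 genes. The means were 2.45 ± 1.21 and 11.4 ± 3.25 FPKM (SD, n = 4 each), a log2 difference of 1.88.

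**Figure D1:**
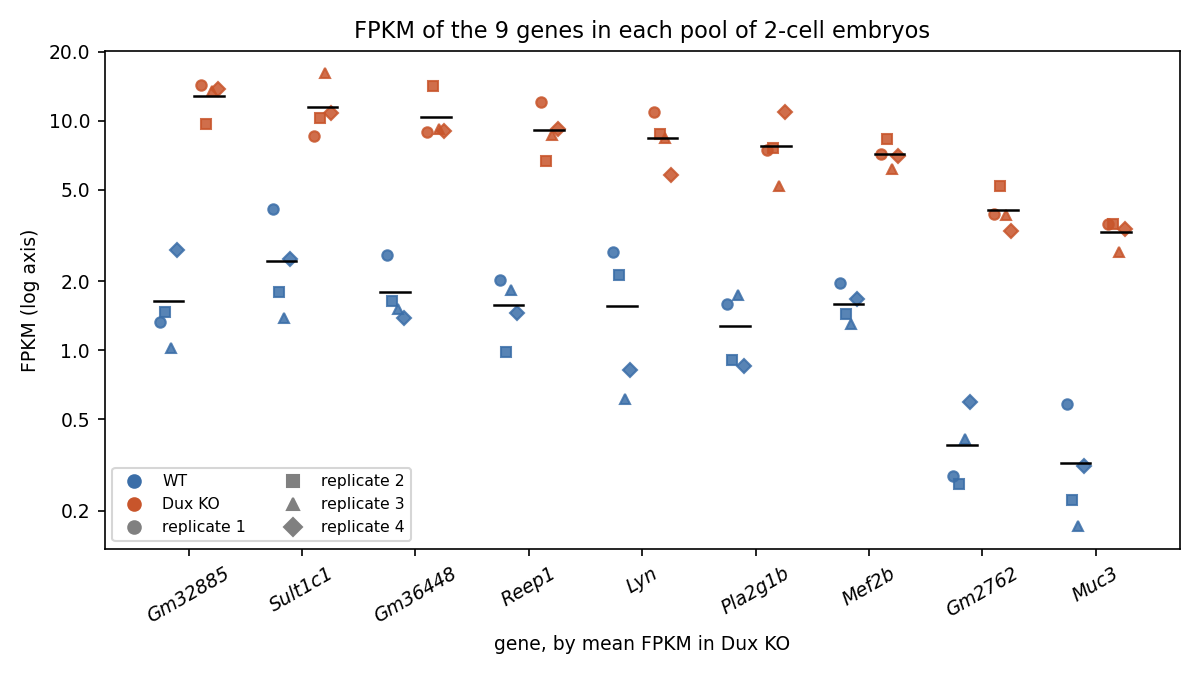
FPKM of the 9 genes on a log axis, with 1 point per pool (WT in blue, Dux KO in orange, marker shape for the replicate number) and a black bar at each group mean of 4 pools. No gene has a WT pool at or above a Dux KO pool, and Lyn has the widest WT spread.

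None of the 9 genes was at 0 in any pool, so the wild-type state is low rather than empty at this depth. In Dux KO their levels ran down from Gm32885 to Muc3 in small steps. Only the step from Mef2b (7.16 FPKM) to Gm2762 (4.07 FPKM) separated the pool values of neighbours in that order, and all other neighbours overlapped. In WT the order began with Sult1c1 at 2.45 FPKM, and only Pla2g1b (1.28 FPKM) and Gm2762 (0.388 FPKM) were separated. Among all 13101 genes, the members ranked between 8494 and 12656 by WT mean and between 3615 and 7811 by Dux KO mean. They thus stood in the middle of the table in Dux KO, not near its top.

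The order of the pools within a group was not the same for all 9 genes. WT replicate 1 was the highest WT pool for 6 of them and the lowest for 0, and WT replicate 3 was the lowest for 5 and the highest for 1. Their summed level was 17.2, 10.87, 9.999 and 12.33 FPKM in the WT pools and 76.9, 74.2, 73.7 and 73.3 FPKM in the Dux KO pools. The sum was thus nearly even over the Dux KO pools, although single genes differed: replicate 2 was highest for 4 genes and lowest for 2, and replicate 1 highest for 3 and lowest for 2. WT coefficients of variation were 18.4% to 64.3% and Dux KO ones 12.2% to 30.5%, and fewer reads lay behind the WT values. Lyn, at 64.3% in WT, had the most WT reads of the 9 (329), and Muc3, at 57.3%, the fewest (32). Whether read number sets the spread was not tested.

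**Figure D2:**
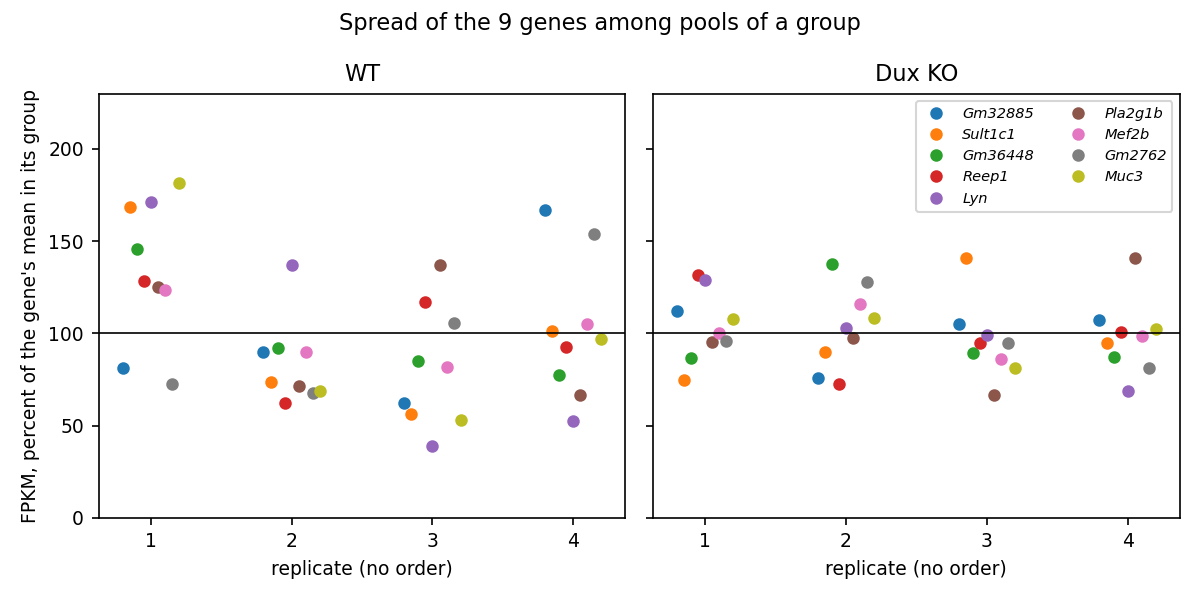
FPKM of each gene in each pool, as a percent of that gene's mean over the 4 pools of its group, for WT (left) and Dux KO (right); each colour is 1 gene and the line marks the mean. Most WT replicate 1 points lie above the line, and the Dux KO points scatter around it in every pool.

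The 9 genes were part of a larger group of low genes with higher values in Dux KO. In the fit across all genes, 15.5% of the 12434 genes tested were called higher in Dux KO and 18.1% lower (limma, Benjamini-Hochberg adjusted p under 0.05). Of all genes tested, 15.0% had every Dux KO pool above every WT pool, as the 9 members do by choice. Among the 4511 tested genes with a WT mean of at most 3 FPKM, 20.9% were called higher and 4.66% lower, and 19.8% had no overlap in the upward direction. A limit on the WT mean in itself favours genes that are higher in Dux KO. With the limit put on the mean over all 8 pools, 4306 genes remained, of which 16.2% were called higher and 7.41% lower.

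Requiring a WT mean of at most 3 FPKM, no overlap and a log2 difference of at least 1 left 149 genes, 35 of them predicted models named Gm. The 9 members meet this and rank between 1 and 21 within it by size of difference. The mirror requirement, a Dux KO mean of at most 3 FPKM and a fall of the same size, was met by 67 genes. Of 2255 genes with a WT mean under 1 FPKM, 24 reached a mean of 3 FPKM in Dux KO, Gm2762 and Muc3 among them. At the edge of the limit, Rnf5 (2.96 to 8.96 FPKM) and Cldn34b2 (2.98 to 11.6 FPKM) fell just inside it. Ctag2 (3.02 to 9.10 FPKM) and Nt5dc2 (3.02 to 7.44 FPKM) fell just outside.

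**Figure D3:**
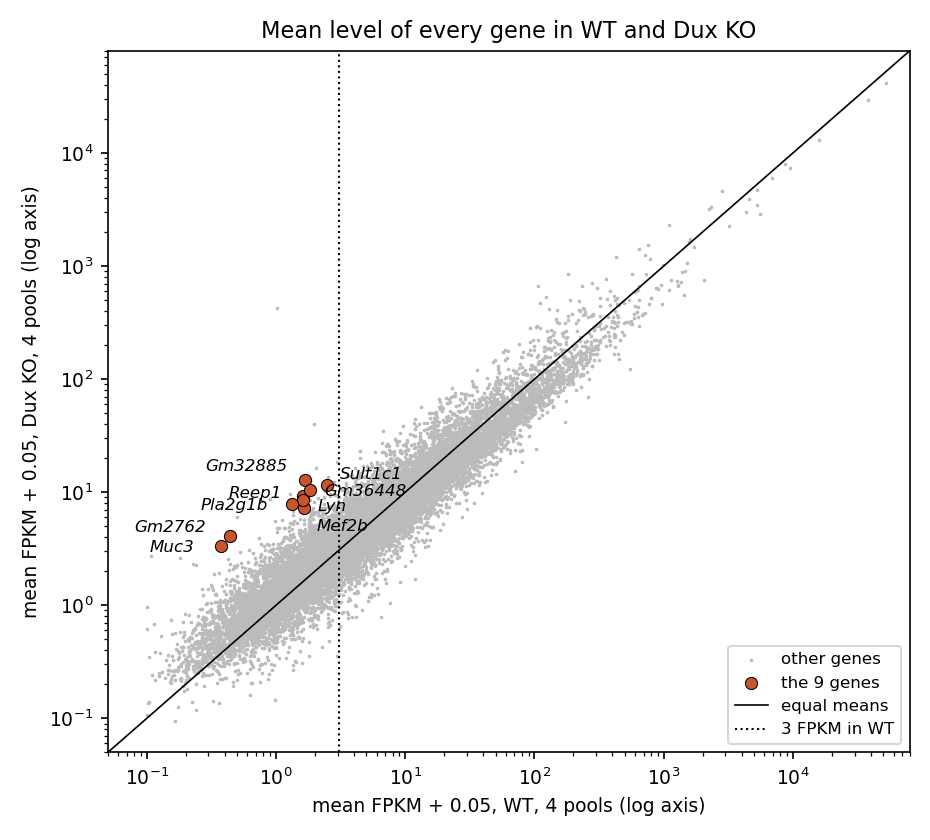
Mean FPKM + 0.05 of every gene in the 4 Dux KO pools against that in the 4 WT pools, both on log axes, with the 9 genes in orange, a line of equal means and a dotted line at 3 FPKM in WT. The 9 genes lie above and to the left of the main cloud, and the lone point far above them is Gm28438, whose Dux KO pools run from 1.11 to 872 FPKM and overlap the WT pools.

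Relatives of the 6 coding genes were followed to see whether whole families were higher. Of 106 listed relatives, 61 were in the table and 56 were tested. In Dux KO 11 were higher (19.6%), 6 were lower (10.7%) and 39 did not pass the test, and the median log2 difference was 0.12, beside -0.02 over all genes tested. Among all genes tested these shares were 15.5% and 18.1%. Without WT replicate 4 or Dux KO replicate 1, 7 relatives were higher in place of 11, and without WT replicate 4 only 3 were lower. Calls of 9 of the 17 held without each pool in turn. Quantile normalization ended the calls of Muc4, Mef2d and Atl1, and leaving out Dux KO replicates 1 and 2 together left 2 relatives higher and 1 lower.

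Among mucins, 4 of 11 listed genes were in the table and 3 were tested. Muc20, another membrane mucin, rose from 0.859 ± 0.367 to 3.06 ± 0.681 FPKM (SD, n = 4 each; limma adjusted p = 0.00309). Muc4 also rose, from 1.33 to 2.69 FPKM (adjusted p = 0.0425), with overlapping pools. Muc13 fell from 2.79 to 0.842 FPKM (adjusted p = 0.0285), so the 3 did not move one way. Leaving out any one of 4 pools ended the call of Muc4 (WT replicates 3 and 4, Dux KO replicates 1 and 2), with adjusted p up to 0.118. The same held for Muc13 (WT replicate 1, Dux KO replicates 1, 2 and 4), with adjusted p up to 0.0648.

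Of the phospholipase A2 genes, 9 of 20 were in the table and all were tested. Pla2g4c, a cytosolic enzyme of this group, had 28.1, 25.6, 25.9 and 17.5 FPKM in WT and 73.7, 106.9, 62.5 and 41.5 FPKM in Dux KO (log2 difference 1.46, limma adjusted p = 0.00385). It was the largest rise among the relatives tested, in a gene already well expressed in WT. Pla2g5, a secreted enzyme like Pla2g1b, rose from 1.07 to 1.95 FPKM (adjusted p = 0.0192). Pla2g16 fell by 0.62 on the log2 scale (adjusted p = 0.015), as did Pla2g15, the lysosomal enzyme, by 0.59 (adjusted p = 0.0193). The call of Pla2g15 ended without WT replicate 4 (0.0559) or Dux KO replicate 1 (0.0571). The other 5 genes did not pass the test.

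All 15 genes tested from the list of endoplasmic reticulum shaping genes, of 17 listed, gave a mixed picture beside Reep1. Of the other Reep genes, Reep5 rose from 4.87 to 9.13 FPKM (limma adjusted p = 0.0136). Reep2 rose from 9.55 to 15.9 FPKM (adjusted p = 0.0236), with overlapping pools. Reep3 (log2 difference -0.22, adjusted p = 0.301), Reep4 (0.40, adjusted p = 0.0886) and Reep6 (0.45, adjusted p = 0.0731) did not pass. Atl1, an atlastin that fuses tubules, rose from 1.52 to 2.57 FPKM (adjusted p = 0.0392). Its relative Atl3 fell from 11.2 to 4.47 FPKM (adjusted p = 0.0042), and the reticulon Rtn2 fell from 12.2 to 6.56 FPKM (adjusted p = 0.0211). In all, 10 of the 15 did not pass. Calls ended for Reep2 without WT replicate 1, WT replicate 4 or Dux KO replicate 1 (adjusted p up to 0.0669), and for Rtn2 without WT replicate 3, WT replicate 4 or Dux KO replicate 2 (up to 0.0622). The call of Atl1 ended without any of 6 pools, holding only without WT replicate 2 or Dux KO replicate 4, with adjusted p up to 0.102.

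In the sulfotransferase list, 10 of 28 genes were tested. Tpst2, which sulfates tyrosines of secreted proteins, rose from 1.30 to 2.99 FPKM (limma adjusted p = 0.00736). Sult2a4 rose from 1.52 to 3.51 FPKM (adjusted p = 0.0133), with overlapping pools. Sult2b1, which sulfates cholesterol, fell from 37.9 to 24.0 FPKM (adjusted p = 0.0232), a call that ended without WT replicate 3 (0.0579) or WT replicate 4 (0.0633). The other 7 did not pass.

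The last pair of lists held 1 call each. Of 11 tested Src family kinases and regulators, Fyn alone passed, rising from 9.01 to 14.8 FPKM with overlapping pools (limma adjusted p = 0.0259). That call ended without WT replicates 1, 2 or 4 or Dux KO replicates 1 or 4 in turn, with adjusted p up to 0.0723. Lck, the T cell kinase, had 14.3 and 12.7 FPKM (adjusted p = 0.477), and Csk, the kinase that holds Src kinases inactive, had 2.61 and 3.32 FPKM (adjusted p = 0.222). Of 8 tested Mef2 genes and cofactors, Mef2d alone passed, rising from 0.657 to 1.26 FPKM (adjusted p = 0.0186). That call ended under quantile normalization and without Dux KO replicates 1 and 2 or 3 and 4 together, with adjusted p up to 0.12. Mef2a had 3.45 and 2.76 FPKM (adjusted p = 0.303).

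**Figure D4:**
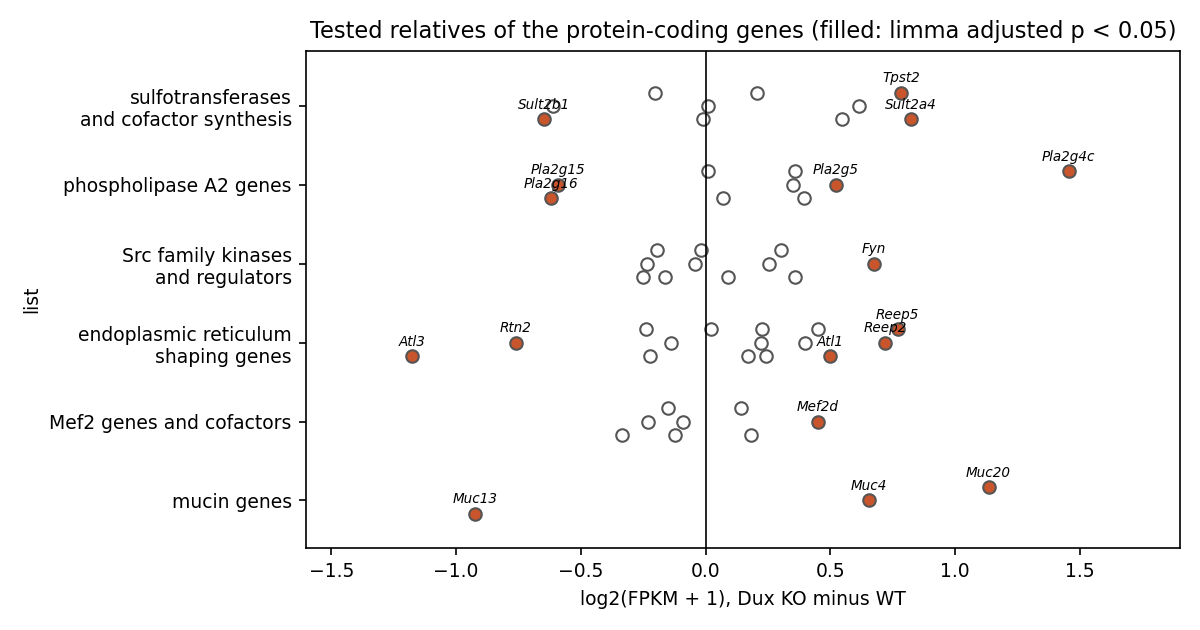
Log2 difference, Dux KO minus WT, of the 56 tested relatives in 6 lists, with 1 point per gene (filled and named where the limma adjusted p was under 0.05). Points lie on both sides of 0 in every list, with Pla2g4c farthest to the right and Atl3 farthest to the left.

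Markers of cells that use these genes were read beside them. For blood and leukocytes, 4 of 18 markers were in the table and summed to 7.20 to 13.5 FPKM in WT against 13.8 to 18.9 in Dux KO. The largest part was Ms4a1, a B cell surface gene, which rose from 4.43 ± 0.810 to 9.21 ± 1.18 FPKM (SD, n = 4 each; limma adjusted p = 0.00421). The other 3 did not pass, with log2 differences of 0.61 for Spi1 (adjusted p = 0.111), 0.17 for Cd79a (0.503) and -0.12 for Cd68 (0.775). The pan-leukocyte gene Ptprc and the haemoglobin genes are not in the rows used here. For exocrine pancreas, 5 of 12 were in the table, at a summed 144.0 to 190.1 FPKM in WT against 216.5 to 245.5 in Dux KO. Of these, Cela1 (adjusted p = 0.00574), Cpa1 (0.0167) and Cpb1 (0.0218) rose, while Ctrb1 had 22.9 and 16.4 FPKM (adjusted p = 0.26) and Pnlip had 11.6 and 11.0 FPKM (0.843). Over all genes tested, 15.5% were higher. The call of Cpa1 ended without WT replicate 4 (adjusted p = 0.0539), and that of Cpb1 without WT replicate 4, Dux KO replicate 2 or Dux KO replicate 3 (up to 0.0586).

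For intestinal epithelium, only Vil1 of 12 markers was in the table, with 10.2 to 14.4 FPKM in WT against 14.1 to 22.7 in Dux KO (adjusted p = 0.0377). That call ended without any of 6 pools in turn, with adjusted p up to 0.101, and held without WT replicate 2 or Dux KO replicate 4. Cumulus and granulosa markers, 6 of 16 in the table, summed to 28.0 to 36.0 FPKM in WT against 29.0 to 42.5 in Dux KO. Of the 6 tested only Cyp19a1 passed (higher). Amhr2 had 22.9 and 19.5 FPKM (limma adjusted p = 0.481), and Cyp11a1 had 1.23 ± 0.789 and 5.30 ± 7.18 FPKM (SD, n = 4 each, 0.173). Oviduct markers, 7 of 12 in the table, summed to 134.3 to 155.9 FPKM in WT and 104.4 to 148.1 in Dux KO. Most of that sum was Epcam, with 132.1 FPKM in WT against 90.4 in Dux KO. Foxj1, Pax8, Wt1, Krt8 and Ccdc39 of that list are not in the rows used here. Of the 6 tested, Esr1 (limma adjusted p = 0.0171) and Cdh1 (0.0369, with overlapping pools) were higher and Epcam (0.0297) was lower. Ovgp1 (4.96 to 10.5 FPKM, adjusted p = 0.213), Krt18 (2.84 to 6.83 FPKM, 0.218) and Dynlrb2 (2.28 to 5.86 FPKM, 0.135) did not pass. The median log2 difference of the 6 was 0.72. The call of Cdh1 ended without WT replicates 2 or 4 or Dux KO replicates 1, 2 or 4 in turn (up to 0.103). That of Epcam ended without WT replicates 1, 2 or 4 in turn (up to 0.0785) and under quantile normalization. None of 10 sperm markers was in the table. The part of other cell types in the levels of the 9 genes was not tested.

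The genes next to the members were read from the same fit. The nearest gene of the table on each side that did not overlap the member gave 18 neighbours, of which 17 were tested. Of these 1 was higher, 3 were lower and 13 did not pass the test, where 15.5% of all genes tested were higher and 18.1% lower. Borcs8, which overlaps Mef2b and was lower (log2 difference -0.77, limma adjusted p = 0.01), is not counted among them. The median log2 difference of the neighbours was -0.22, beside -0.02 over all genes tested. Both neighbours of Lyn fell. Tgs1, which modifies the caps of small nuclear RNAs, had 26.92 ± 4.397 FPKM in WT against 11.7 ± 1.92 in Dux KO (SD, n = 4 each; limma adjusted p = 0.00236) at 61.5 kb upstream. At 18.2 kb downstream, the ribosomal protein gene Rps20 fell from 10.1 to 6.72 FPKM (adjusted p = 0.0338), a call that ended without WT replicates 2, 3 or 4 or Dux KO replicates 1 or 2 in turn (up to 0.0946), and under quantile normalization.

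Near Muc3, the adaptor subunit gene Ap1s1 at 88.8 kb fell from 56.4 to 36.7 FPKM (adjusted p = 0.0164), and without WT replicate 4 its adjusted p was 0.0507. Adgre4, the only neighbour that rose (3.02 to 7.48 FPKM, adjusted p = 0.00702), lies 1760 kb from Sult1c1. By GENCODE coordinates, the 3 neighbours within 10 kb were Rfxank beside Mef2b at 0.557 kb, Mrpl35 beside Reep1 at 2.29 kb and Sirt4 beside Pla2g1b at 3.29 kb. Their log2 differences were -0.21, -0.23 and -0.42, and none passed the test. Beside Gm2762, 9530014B07Rik had 1.29 ± 2.02 and 6.79 ± 10.5 FPKM (adjusted p = 0.474), with a spread larger than its mean in both groups.

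**Figure D5:**
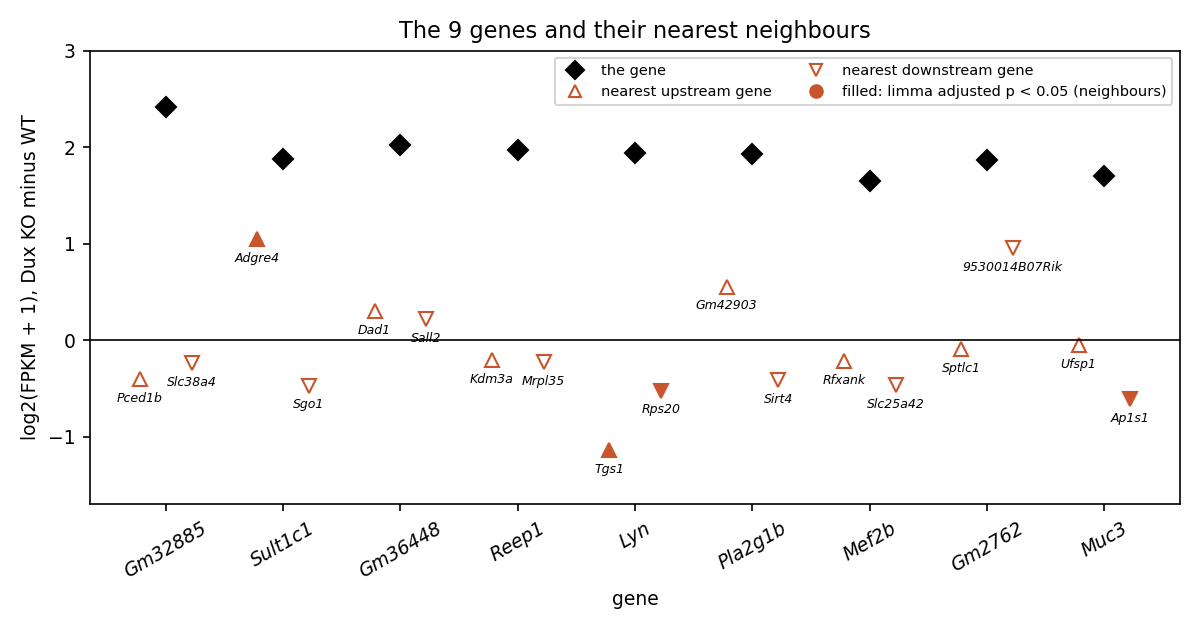
Log2 difference, Dux KO minus WT, of each of the 9 genes (black diamonds) and of its nearest upstream and downstream genes in the table that do not overlap it (triangles, filled where the limma adjusted p was under 0.05). The diamonds lie between 1.65 and 2.41, and all neighbours lie below them.

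Genes with the most similar profile over the 8 pools were found by the root-mean-square difference of z-scored log2(FPKM + 1). Nearest to the mean profile of the 9 genes was Txn1, the cytosolic thioredoxin, at 0.0801, with 19.18 ± 2.795 FPKM in WT against 51.7 ± 2.76 in Dux KO (SD, n = 4 each). Coprs (0.125), Slc25a15 (0.139), Sept11 (0.173) and Polr2g (0.182) followed. Slc25a15, the mitochondrial ornithine carrier, was also the nearest to Muc3 and to Mef2b. Gm45304 was nearest to Gm36448, at 0.0608, with 11.7 FPKM in WT against 41.2 in Dux KO. The nearest to the other 6 were Sgcd for Gm2762, Fsd1 for Reep1, 4930539E08Rik for Gm32885, Spink13 for Sult1c1, Gm6578 for Lyn and 4931413I07Rik for Pla2g1b. Any gene with well separated groups comes close by this measure, so the likeness carries no test.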

How the data were processed

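RNA-seq libraries were made from pooled embryos with a low-input cDNA kit and Nextera XT, per the labels' protocols. Per the submitters' processing notes, the tools were Trimmomatic 0.32, STAR 2.6.1a and SAMtools 1.7, with GRCm38 (mm10) as the build. What counted the reads, with which annotation and strand setting, how multi-mapped reads were handled and which test gave the deposited p-values: not given in the sources used here. The authors deposited FPKM per gene and a mean signal, read here as counts over size factors, with a log2 fold change and an adjusted p-value. The repeat table holds a signal that the authors deposited as FPM, fragments scaled to library size.

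FPKM times the ratio of mean count to mean FPKM gave whole multiples of 1 step per pool for 100% of values within 0.05, from which whole reads were recovered. The main test was limma 3.58.1 (R 4.3.3, trend and robust moderation, two-sided) on log2(FPKM + 1), with 4 Dux KO and 4 WT pools and no covariate, for the 12434 genes whose mean reached 0.5 FPKM. It was tested on simulated data with the same spread setting for every gene and pool. That does not show how it performs at the uneven spread of these pools. Fold changes on this scale understate those of low genes. Repeats reaching a mean of 1 FPM were fitted likewise.

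The 9 genes, the lists and the rule for named genes were chosen with earlier results of these data known. That rule took at most 3 called relatives per list and direction, each nearest neighbour and the closest profiles. Of each marker list it took the 2 of highest mean FPKM. Further markers were named after their values were seen. Coordinates come from GENCODE M21, which held 13100 of 13101 identifiers. Alternatives were another pseudocount, filters, scalings, a replicate block, edgeR 4.0.16 and DESeq2 1.42.0 on recovered reads, the authors' p-values, and leaving out pools.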

Additional observations from a re-analysis of the deposited data

Results flagged for a closer look

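Gm36448 in Dux KO replicate 2, at 14.23 FPKM, stood apart from the other Dux KO pools, which lay between 8.964 and 9.24 FPKM. The gap to the nearest pool was 0.948 of the range of the group, above Dixon's limit for 4 samples. It was the only one of 18 groups of 4 (9 genes in 2 genotypes) past that limit, and chance alone marks about 1 group in 20. Without that pool the log2 difference of Gm36448 was 1.87.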

How the results depend on the processing

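The 9 genes were picked for higher values in all Dux KO pools, so leaving out pools could not reverse a difference. The filters, the replicate block and limma without trend and robust moderation return the same difference by construction. With these included, no difference of the 9 genes reversed in 176 values under 20 alternatives, and 144 moved by less than the spread between pools. The other 32 moved upward, for every member but Sult1c1, with a pseudocount of 0.1 FPKM (2.11 to 3.13 over the 9 genes), with edgeR (2.20 to 3.43) or DESeq2 (2.21 to 3.44) on recovered reads, and in the authors' deposited table (2.17 to 3.39). Leaving out 1 pool gave 1.59 to 2.59. A mean of at least 5 FPKM kept 5 of the 9 genes, since it removes low genes, and called 1032 genes higher in place of 1933 and 4 relatives higher in place of 11. Leaving out Dux KO replicates 1 and 2 together called 352 genes higher and 443 lower (2249 in the full set). It left 2 relatives higher and 1 lower (6 in the full set). Leaving out Dux KO replicates 3 and 4 together called 1842 genes higher and 2102 lower, with 9 relatives higher and 4 lower. The cause of this contrast was not tested. Leaving out 1 pool called 1176 to 1917 genes higher and 1346 to 2132 lower, and 7 to 11 relatives higher and 3 to 7 lower. A replicate block called 2141 genes higher and 2591 lower. Deviations of same-numbered pools had correlations of -0.115, 0.328, -0.0554 and 0.302, beside -0.404 to 0.271 for different numbers. These values do not settle whether the numbers pair the pools. Other settings stayed within 1.5 times the main counts. WT values of Muc3, Pla2g1b and Gm36448 rest on at most 15 reads a pool, which limits their ratios.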
